A study of Mus musculus with 18 samples.

Results

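*Cdh15*, *Nhlrc1* and *Zfp787* are 3 of the 35856 genes in the deposited annotation, and each carries a broad H3K9me3 peak in wild-type mESCs. The study lists them with imprinted clusters and calls such loci methylated, but DNA methylation was not measured in the files used here, so the sites below are H3K9me3 sites. The genes were taken by name, and peaks were read over their transcripts plus 20 kb on each side. Peak lists of H3K9me3 ChIP-seq were available for 6 of the 18 samples, with 2 libraries for each of 3 genotypes, all in the mouse embryonic stem cell line ES-E14TG2a and with the same antibody against H3K9me3. The wild-type cells (WT) were the reference. *Uhrf1* KO cells were made with CRISPR-Cas9 in mESCs that carry the inducible *8x-tetO-eGFP* reporter with TetR-KRAB, as clonal lines, and the clone behind each replicate is not given in the sources used here. The study's legends name the wild-type cells compared with *Uhrf1* KO as *8x-tetO-eGFP* cells too. The *Dhx9* KO libraries are labelled only by the knockout. The other 12 samples were not analysed here. The study picked the 3 genes from the comparison of WT with *Uhrf1* KO in these same libraries, so their loss in *Uhrf1* KO is a description. The comparison with *Dhx9* KO played no part in that choice, but it uses the same WT libraries. High WT values were favoured by that choice and by taking sites with the most WT reads. This can lower *Dhx9* KO relative to WT, and its size was not tested. The lists hold no expression values, so the knockouts themselves could not be checked.

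H3K9me3 is a histone mark of silent chromatin. At imprinted control regions it marks the parental copy that is also DNA methylated, where the KRAB zinc finger protein ZFP57 recognises the methylated hexamer TGCCGC and recruits KAP1 with the H3K9 methyltransferase SETDB1. UHRF1 binds hemimethylated CpGs and H3K9me and brings the maintenance methyltransferase DNMT1 to replicated DNA, and DHX9 is an RNA and DNA helicase. *Cdh15* encodes M-cadherin, an adhesion protein of skeletal muscle. *Nhlrc1* encodes malin, an E3 ubiquitin ligase of glycogen metabolism, and *Zfp787* encodes a zinc finger protein.

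The site of a gene was taken as the stretch shared by a peak of both WT libraries that held the most ChIP reads. On mm10, the *Cdh15* site spans 12 kb at chr8:122858801-122870800, from 10.4 to 22.4 kb downstream of the gene's start. It covers the 3' part of this plus-strand gene, exons and introns, and the sequence just past its end. The *Nhlrc1* site spans 15.4 kb at chr13:46999401-47014800, from 0.05 to 15.4 kb downstream of the start of this single-exon, minus-strand gene. It thus holds nearly the whole gene and the intergenic sequence downstream of it. The *Zfp787* site spans 7.4 kb at chr7:6130201-6137600 in this minus-strand gene. It covers the last exon, a 5' UTR exon at chr7:6134642-6134708, intron sequence beside them and the sequence just past the gene's 3' end. None of these sites is a promoter peak alone, and at *Cdh15* and *Zfp787* the site lies far from the start.

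The stretches of 300 bases that hold the most copies of the ZFP57 hexamer in each site, outside UTRs, are shown because they lie under the peaks compared below. They are the plus strand of mm10, and capitals mark TGCCGC or its reverse complement GCGGCA. The *Cdh15* stretch is chr8:122865098-122865397, of which 202 bases are coding exon. The *Nhlrc1* stretch is chr13:47010848-47011147, in intergenic sequence 3.70 to 4.00 kb downstream of the start. The *Zfp787* stretch is chr7:6132761-6133060, wholly within the coding part of the last exon.
Cdh15: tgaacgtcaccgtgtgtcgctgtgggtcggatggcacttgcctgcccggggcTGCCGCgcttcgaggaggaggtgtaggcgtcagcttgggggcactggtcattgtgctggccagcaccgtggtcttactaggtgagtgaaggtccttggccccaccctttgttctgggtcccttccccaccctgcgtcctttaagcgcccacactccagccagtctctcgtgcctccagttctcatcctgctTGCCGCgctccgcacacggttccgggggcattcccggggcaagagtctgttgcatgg
Nhlrc1: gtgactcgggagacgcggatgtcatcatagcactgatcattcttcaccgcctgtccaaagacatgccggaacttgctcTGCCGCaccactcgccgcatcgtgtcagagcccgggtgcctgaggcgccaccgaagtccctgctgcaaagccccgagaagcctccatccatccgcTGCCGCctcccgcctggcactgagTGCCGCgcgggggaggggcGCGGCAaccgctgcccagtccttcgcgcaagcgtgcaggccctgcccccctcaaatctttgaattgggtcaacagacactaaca
Zfp787: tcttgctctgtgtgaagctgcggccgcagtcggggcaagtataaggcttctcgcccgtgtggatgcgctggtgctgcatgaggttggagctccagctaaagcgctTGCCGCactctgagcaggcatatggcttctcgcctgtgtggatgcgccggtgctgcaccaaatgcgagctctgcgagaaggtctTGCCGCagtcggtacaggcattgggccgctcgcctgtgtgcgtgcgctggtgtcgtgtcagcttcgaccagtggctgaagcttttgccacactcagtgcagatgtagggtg
The *Nhlrc1* stretch held 4 hexamers and 25 CpGs, the *Cdh15* stretch 2 hexamers and 19 CpGs, and the *Zfp787* stretch 2 hexamers and 21 CpGs. None of their bases is soft-masked repeat. Of 967972 consecutive tiles of 300 bases in the shared WT stretches of the genome, 3.72% held at least 1 hexamer, 0.148% held at least 2, and 50 tiles held at least 4. These stretches were picked for their hexamers, so the shares are a description, and a hexamer in the sequence does not show that ZFP57 was bound.

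Over the whole sites, the hexamer occurred 5 times at *Cdh15*, 8 times at *Nhlrc1* and 3 times at *Zfp787*, on either strand. Among WT stretches of like length (from 0.8 times the site's length up to the length divided by 0.8), as many copies or more were found in 3.92%, 0.669% and 9.73%, while 71.8%, 77.7% and 55.2% held at least 1. CpGs numbered 20.8 per kb at *Cdh15*, 19.9 at *Nhlrc1* and 18.2 at *Zfp787*, against medians of 12.0, 12.0 and 11.7 in the stretches of like length. The densest 1 kb held 49, 66 and 80 CpGs. At the sites of 15 other imprinted loci named by the study the densest 1 kb held 22 to 84 CpGs, with a median of 60, so the members lay within that range. Their hexamers per kb, 0.417, 0.519 and 0.405, were below the median of 0.909 for these 15 loci, whose values ran from 0 to 3.85. The plot of CpG against hexamer density shows these values.

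**Figure D1:**
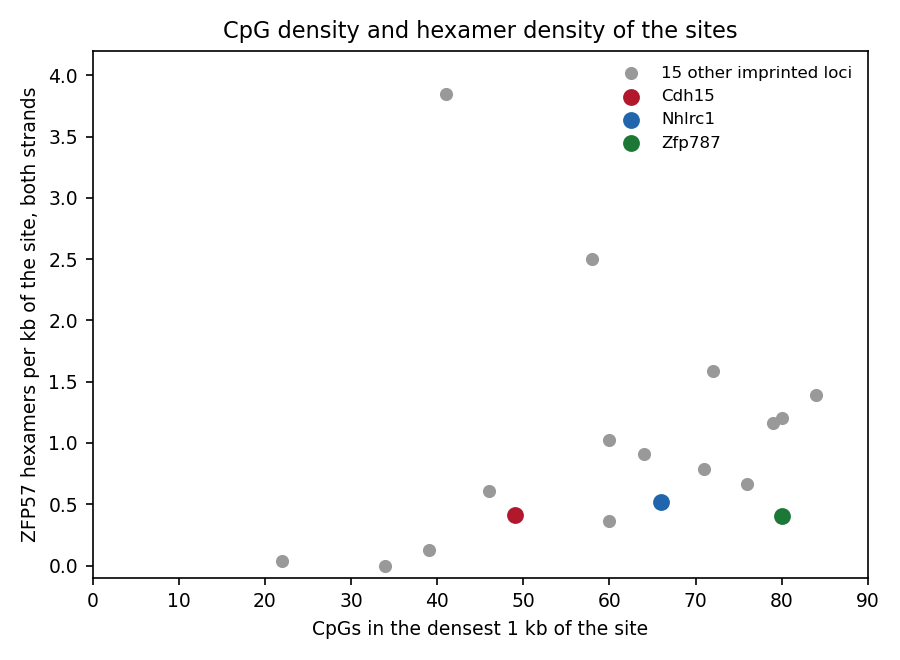
CpGs in the densest 1 kb of each site (x axis) against ZFP57 hexamers per kb of the site on both strands (y axis) in the mm10 reference, for the 3 member genes and 15 other imprinted loci; each point is a gene's site. The members sit at 0.405 to 0.519 hexamers per kb, below the median of 0.909 of the other loci.

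In WT cells, every member had a strong peak in both libraries. At *Cdh15* the peak over the site's centre was 20.2 kb wide with 2593 ChIP and 772 background reads in WT replicate 1, and 12 kb wide with 2087 ChIP and 477 background reads in WT replicate 2. The log2 folds over background were 1.91 and 2.35. This was the strongest of the 3 sites by reads per kb, with 128 and 174. At *Nhlrc1* the peaks were 15.4 and 16.6 kb wide, with 1450 and 1296 ChIP reads, 393 and 424 background reads and log2 folds of 2.04 and 1.83. At *Zfp787* they were 8 and 7.8 kb wide, with 656 and 594 ChIP reads, 214 and 207 background reads and log2 folds of 1.78 and 1.74. Replicates of these last sites thus differed by at most 0.21 in log2 fold, and those of *Cdh15* by 0.44. The peaks ranked between the 80.9th and the 92.5th percentile of their lists by log2 fold. Background reads per kb were 38.2 and 39.8 at *Cdh15* but 25.5 to 26.8 at the other sites. On chromosome 8, which carries *Cdh15*, the median background per kb of peaks was 1.38 to 1.43 times that of the median autosome in all 6 lists, while chromosomes 7 and 13 were at 0.985 to 1.01 times. The part of that difference in the read counts of *Cdh15* was not tested, and the log2 fold divides by the background.

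Beside the sites, the WT windows held weaker peaks. The window of *Cdh15* had 5 peaks in WT replicate 1 and 3 in WT replicate 2. The peaks outside the site there had log2 folds of 0.20 to 0.79 and reached over the gene's start in both libraries. That of *Nhlrc1* held 1 further peak in each WT library, at different places, with 84 and 65 ChIP reads. That of *Zfp787* held 3 further peaks in WT replicate 1 and 1 in WT replicate 2. The peak at about 40 kb downstream of the *Zfp787* start, past its 3' end, was shared by both WT and both *Dhx9* KO libraries, with log2 folds from 0.29 to 0.74. Of the neighbouring genes in the windows, *Ankrd11*, *Gm36371* and *Zfp444* had no peak in any list, *Gm35466* had peaks only in the WT lists, with log2 folds up to 0.39, and *Tpmt* had 1 peak, in WT replicate 1.

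CpG density alone did not mark the H3K9me3 sites. The densest 1 kb of the *Zfp787* window lay at chr7:6155401-6156400, near the gene's 5' end, with 116 CpGs and 3 hexamers, and no list had a peak over it. The next densest, at chr7:6132001-6133000 in the last exon, had 80 CpGs and the same number of hexamers and was covered entirely in both WT and both *Dhx9* KO libraries and not at all in *Uhrf1* KO. At *Nhlrc1*, the densest 1 kb, chr13:47014001-47015000, held 84 CpGs and no hexamer at the gene's start, and the peaks covered 800 and 1000 bases of it in WT, 1000 and 600 in *Dhx9* KO and 0 in both *Uhrf1* KO libraries. The maps of peaks set these CpG profiles under the peaks.

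**Figure D2:**
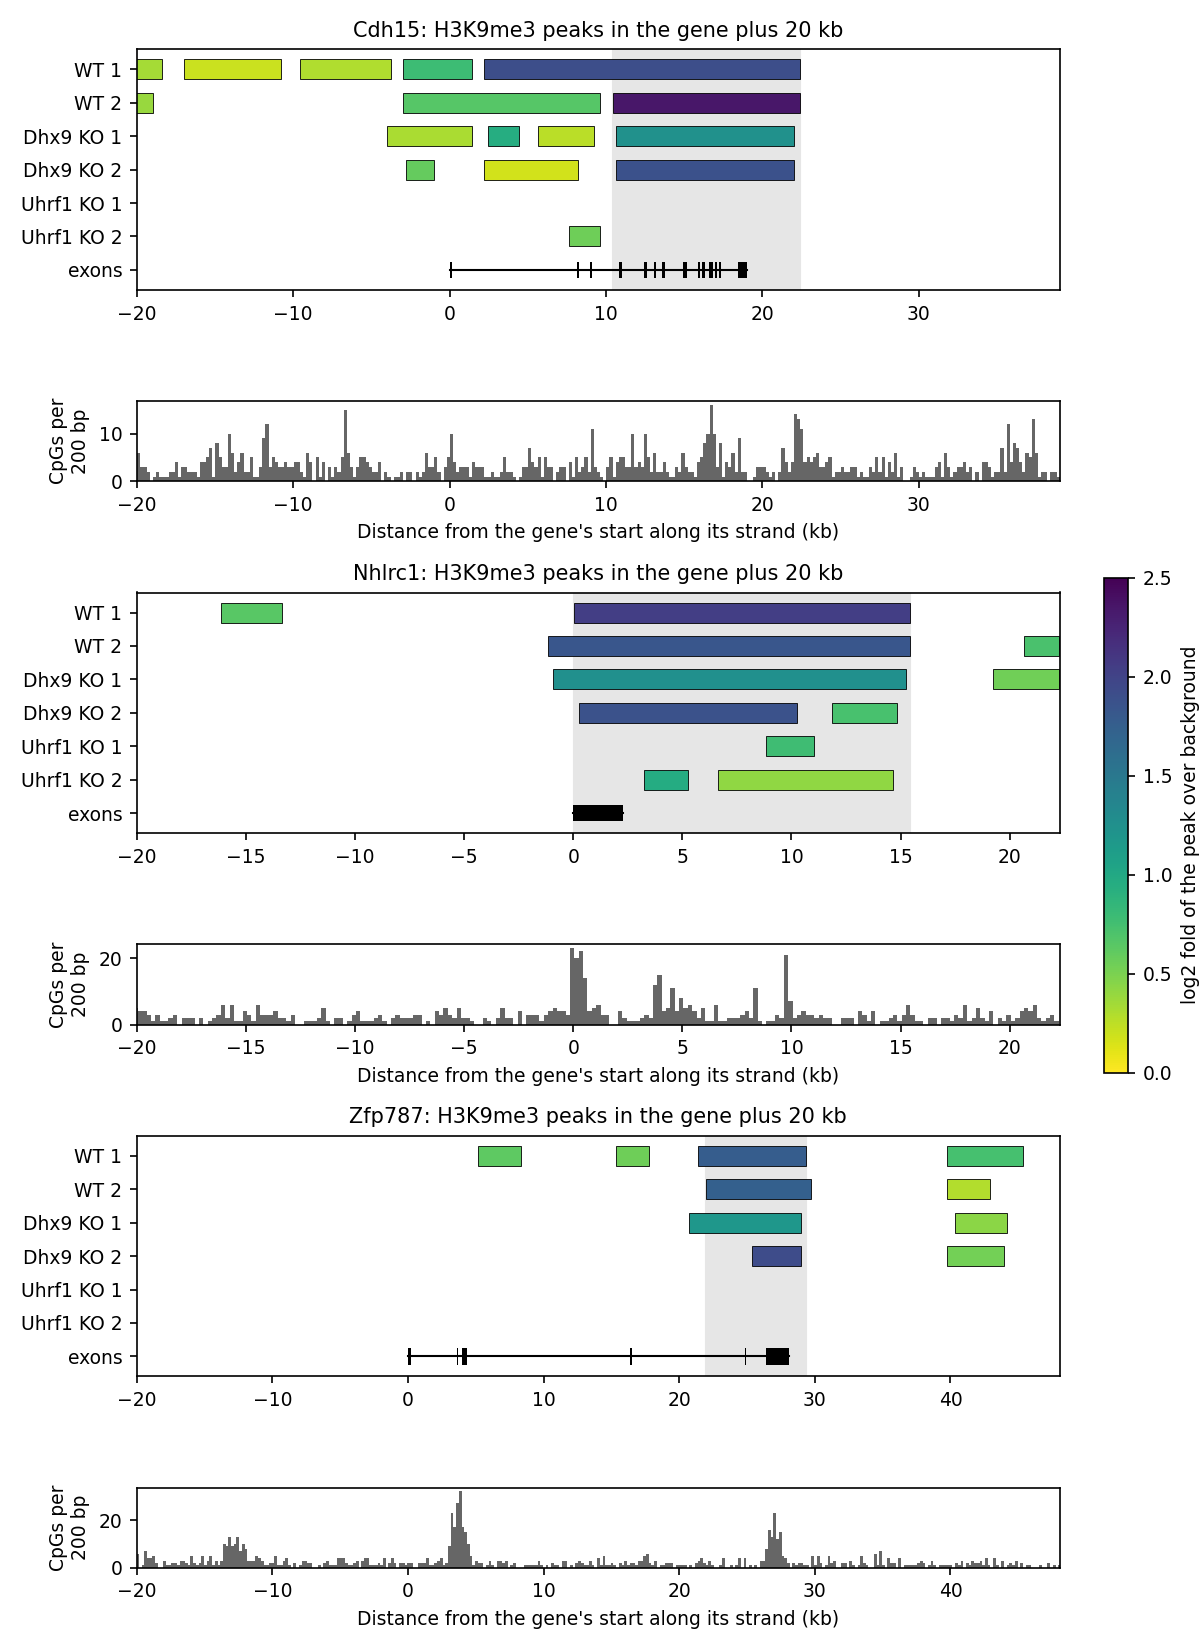
H3K9me3 peaks of the 6 libraries (bars, coloured by log2 fold over background) at *Cdh15*, *Nhlrc1* and *Zfp787*, with the exons of all transcripts and CpGs per 200 bp below, against distance from the gene's start along its strand in kb; grey shading marks the site. Both WT and both *Dhx9* KO libraries have a peak in each shaded site, while *Uhrf1* KO libraries have weak peaks at *Nhlrc1*, 1 weak peak outside the *Cdh15* site and none at *Zfp787*.

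The first comparison asked whether the sites stayed marked without UHRF1. *Cdh15* and *Zfp787* had no peak over the site in either *Uhrf1* KO library, and *Nhlrc1* had weak peaks in both. A site was counted as lost when neither library had a peak over its centre, which held for 2 of the 3 members, and for 3 without *Uhrf1* KO replicate 2. Among all 101845 WT stretches of 600 bp or longer, 29.3% were lost by the same rule. Since this contrast chose the genes, nothing is read from the count. At *Zfp787* no peak was called anywhere in the window of 68.1 kb. At *Cdh15*, *Uhrf1* KO replicate 1 had none in 59.0 kb, and *Uhrf1* KO replicate 2 had 1 peak of 2 kb at chr8:122856001-122858000, upstream of the site, with 67 ChIP and 36 background reads and a log2 fold of 0.55. The lists give no reads outside peaks, so no fold change can be stated for these sites. The smallest peaks listed held 14 and 25 ChIP reads in *Uhrf1* KO replicates 1 and 2, and peaks of at least 7 kb were listed down to log2 folds of 0.18 and 0.07.

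*Nhlrc1* kept remnants of the mark in *Uhrf1* KO. In *Uhrf1* KO replicate 1 there was 1 peak of 2.2 kb at chr13:47003801-47006000, with 39 ChIP and 33 background reads and a log2 fold of 0.78. In *Uhrf1* KO replicate 2 there were 2 peaks. The wider one spanned 8 kb at chr13:47000201-47008200, with 214 ChIP and 126 background reads and a log2 fold of 0.42, and lay over the site's centre. The other spanned 2 kb at chr13:47009601-47011600, with 94 ChIP and 38 background reads and a log2 fold of 0.96. All 3 were weak within their lists, at the 10.6th, 4.95th and 32.7th percentile by log2 fold, and none reached a false discovery rate of 1e-10. Called peaks covered 14.3% and 64.9% of the site, against 100% in WT.

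Per kb, these remnants held fewer reads than the WT peaks. The WT peaks at *Nhlrc1* had 94.2 and 78.1 ChIP reads per kb, and the *Uhrf1* KO peaks had 17.7 in replicate 1 and 26.8 and 47 in replicate 2. After division by the ChIP library size relative to WT replicate 1 (0.960 for WT replicate 2, 0.441 and 0.827 for *Uhrf1* KO replicates 1 and 2), the WT peaks stood at 94.2 and 81.3, and the *Uhrf1* KO peaks at 40.2, 32.3 and 56.8. No test is given, since the contrast chose the gene, and with 2 libraries a side the smallest two-sided exact permutation p is 0.333. The *Uhrf1* KO lists held other background reads than those of WT and *Dhx9* KO, and their labels describe the chromatin preparation separately. *Uhrf1* KO replicate 1 was also shallower by its derived size. The knockout cannot be told apart from these differences.

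The remnants lay downstream of the gene, and the libraries differed in whether they reached the hexamers. In *Uhrf1* KO replicate 2, the called peaks covered all 8 hexamers of the site, including the 4 in the stretch printed above, whose 300 bases lay wholly within the peak of 2 kb. In *Uhrf1* KO replicate 1, the peak covered 0 of the 8. The peak of 2 kb held 34.5 CpGs per kb and that of 8 kb held 13.8, and the peak of *Uhrf1* KO replicate 1 held 22.7. A stretch of 1.4 kb, chr13:47004601-47006000, was the only part of the 3 windows under a peak in all 6 lists, and it held no hexamer. The close-up of *Nhlrc1* places these peaks on the site.

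**Figure D3:**
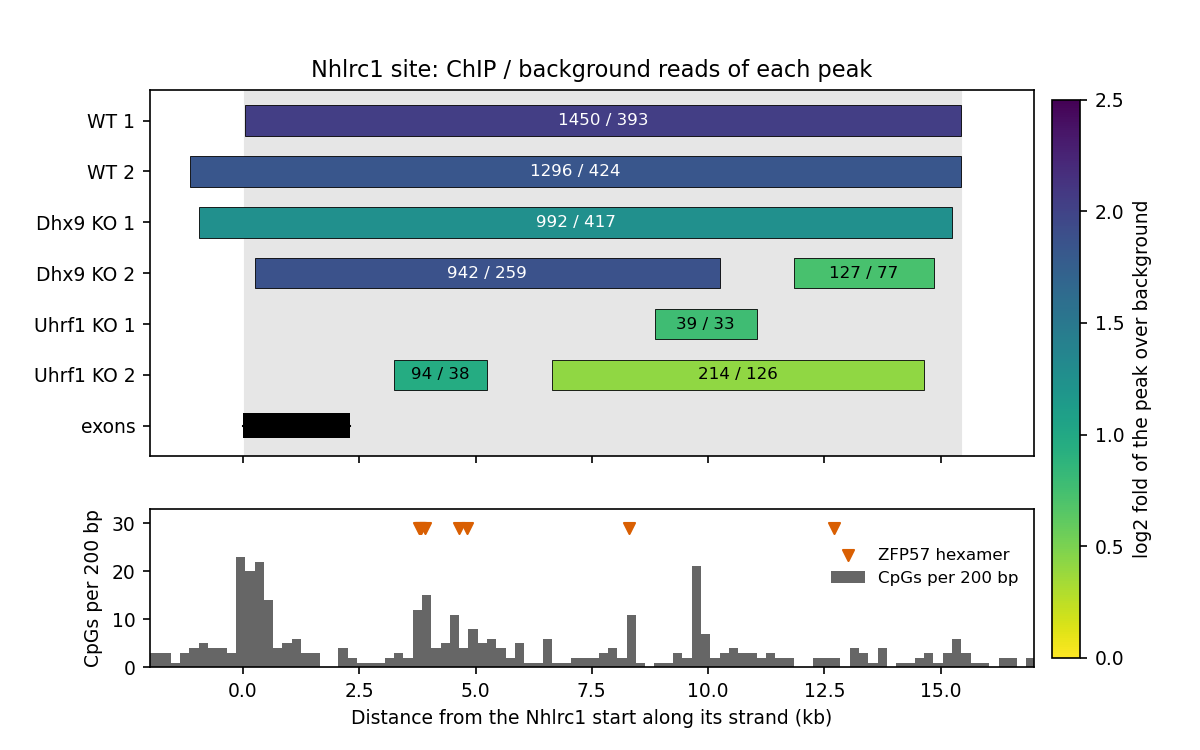
Peaks of the 6 libraries at the *Nhlrc1* site with ChIP and background reads written in each bar, coloured by log2 fold over background (top), and CpGs per 200 bp with the ZFP57 hexamers as triangles (bottom), against distance from the *Nhlrc1* start along its strand in kb; grey shading marks the site. The *Uhrf1* KO peaks hold 39, 94 and 214 ChIP reads and none reaches the gene itself.

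The second comparison asked whether the sites stayed marked without DHX9. All 3 sites had a peak over the centre in both *Dhx9* KO libraries, so 0 of 3 were lost, against 11.1% of all WT stretches. Those stretches include short and weak ones, and the share among stretches of like length or strength was not computed. Of the 15 other imprinted sites, 0 were lost by the same rule. At *Cdh15* both *Dhx9* KO peaks spanned the same 11.4 kb, with 1074 and 1665 ChIP reads, 455 background reads in each and log2 folds of 1.24 and 1.88. At *Nhlrc1* the peak over the centre spanned 16.2 kb with 992 ChIP reads in *Dhx9* KO replicate 1, and 10 kb with 942 ChIP reads in *Dhx9* KO replicate 2, with log2 folds of 1.25 and 1.87. In the latter library a second peak of 3 kb, with 127 ChIP reads, lay in the same site. At *Zfp787* the peak spanned 8.2 kb with 493 ChIP reads in *Dhx9* KO replicate 1 and 3.6 kb with 302 ChIP reads in *Dhx9* KO replicate 2, with log2 folds of 1.18 and 1.92. That shorter peak held the last exon and 30.8 CpGs per kb, and covered 48.6% of the site.

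**Figure D4:**
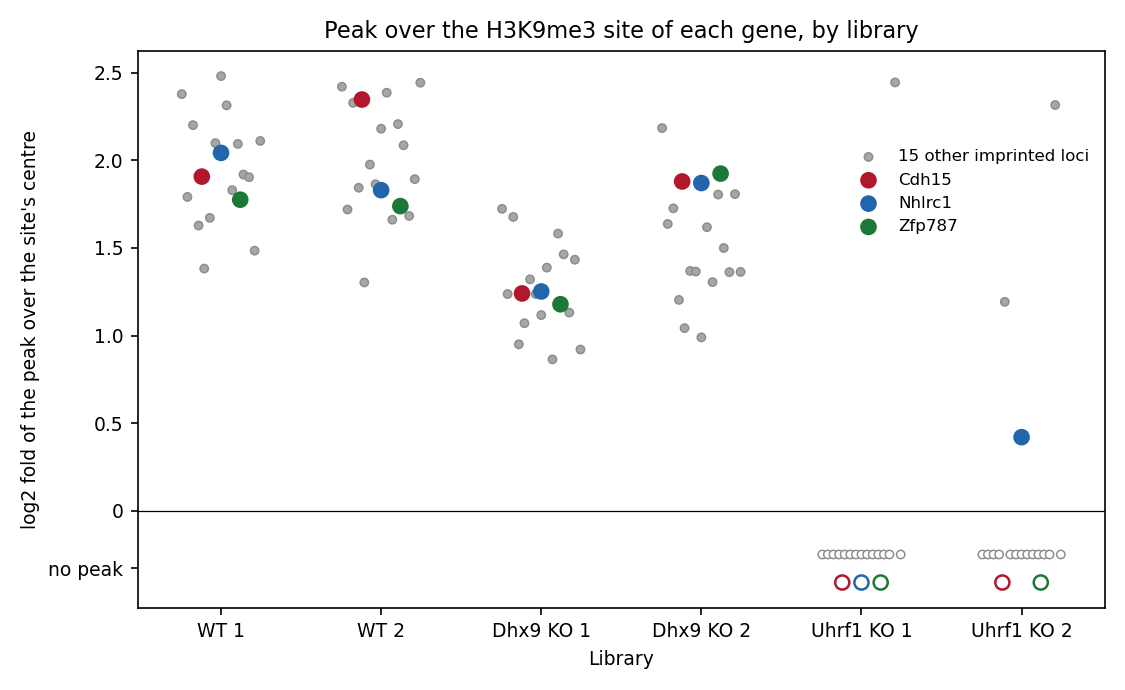
Log2 fold over background of the peak over each site's centre (y axis) in the 6 libraries (x axis), for *Cdh15*, *Nhlrc1*, *Zfp787* and 15 other imprinted loci; open circles stand for no peak over the centre, and the horizontal scatter only separates the points. The members sit at 1.18 to 1.25 in *Dhx9* KO replicate 1 and at 1.87 to 1.92 in *Dhx9* KO replicate 2.

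In log2 fold, both *Dhx9* KO values lay below both WT values at *Cdh15* only. The mean log2 fold there was 2.13 in WT and 1.56 in *Dhx9* KO, a difference of -0.57, with gaps between replicates of 0.44 and 0.64. At *Nhlrc1* the means were 1.94 and 1.56, and *Dhx9* KO replicate 2 lay above WT replicate 2. At *Zfp787* they were 1.76 and 1.55, and *Dhx9* KO replicate 2 lay above both WT libraries, so that the difference of -0.21 became 0.17 without *Dhx9* KO replicate 1. These log2 folds are over peaks called separately, and that of *Dhx9* KO replicate 2 was 3.6 kb wide against 8 and 7.8 kb in WT. Scaled to the derived library sizes, ChIP reads per kb were lower in both *Dhx9* KO than in both WT libraries at *Zfp787* only. They were 53.9 and 75.5 there, against 82 and 79.3. At *Cdh15*, *Dhx9* KO replicate 2 lay above WT replicate 1 on that scale, with 131 against 128. The *Cdh15* peak of WT replicate 1 was 20.2 kb wide, against 11.4 kb in both *Dhx9* KO libraries. For all 3 members, the *Dhx9* KO replicates differed from each other by 0.62 to 0.75 in log2 fold, more than the WT replicates did. Relative to the WT mean log2 fold, *Dhx9* KO replicate 1 was at -0.89, -0.68 and -0.58 for *Cdh15*, *Nhlrc1* and *Zfp787*. *Dhx9* KO replicate 2 was at -0.25, -0.07 and 0.17.

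Lower values in *Dhx9* KO were common in these lists. Of 62927 WT stretches with a peak over the centre in all 4 libraries, 38.3% had both *Dhx9* KO log2 folds below both WT log2 folds, and the median difference was -0.17. Among the 19483 stretches with a mean WT log2 fold of at least 1.5, as at the members, this share was 58.4% and the median difference -0.40. The members' median of -0.38 was near the -0.40 of these stretches. Their 1 of 3 lay below 58.4% and close to 38.3%, but 3 sites are too few to read a share. The stretches with a log2 fold of at least 1.5 were also selected by WT values, which can lower *Dhx9* KO relative to WT. Of the 15 other imprinted loci, 14 had both *Dhx9* KO values below both WT values, with differences from -0.07 at *Rasgrf1* to -1.28 at *Nap1l5* and a median of -0.55. In *Dhx9* KO replicate 2 these 15 loci had a median log2 fold of 1.37 and a range of 0.99 to 2.18, and the members' 1.87 to 1.92 lay below *Airn* alone. In *Dhx9* KO replicate 1 the members lay near the median of 1.24.

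**Figure D5:**
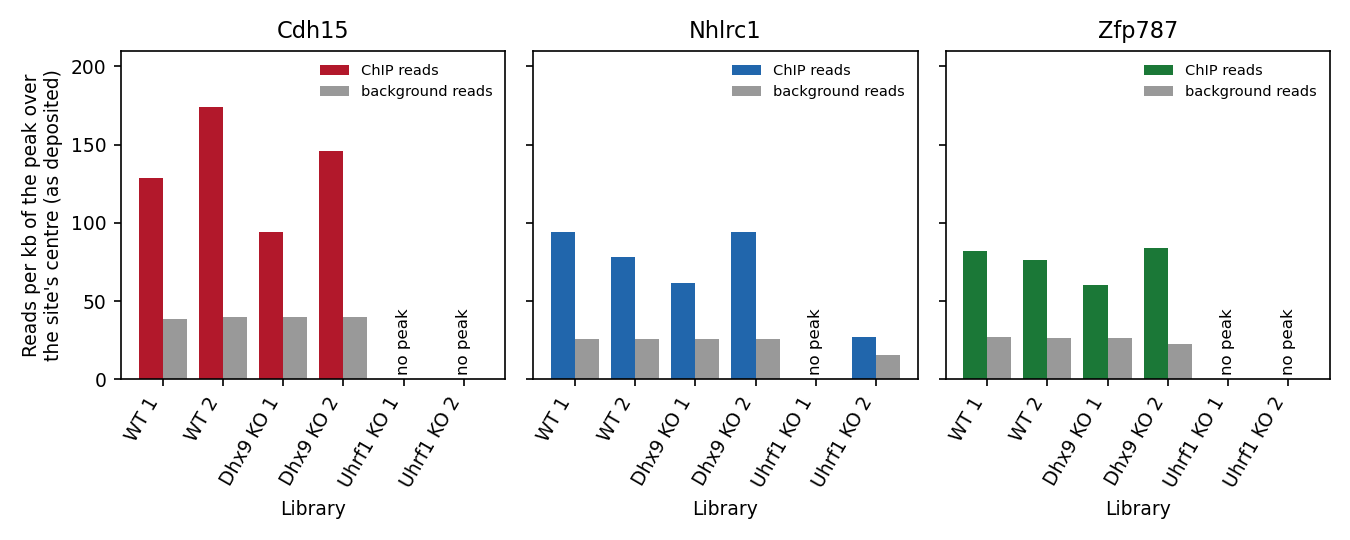
ChIP reads (coloured bars) and background reads (grey bars) per kb of the peak over each site's centre, as deposited, in the 6 libraries; each bar is a single library, so it has no error bar. *Cdh15* has 38.2 to 39.9 background reads per kb and the other sites 22.2 to 26.8 in WT and *Dhx9* KO.

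Read counts were tested over merged regions with edgeR's quasi-likelihood test, with the called length as offset and Benjamini-Hochberg adjustment. The test limited to regions covered over at least 80% in each library held none of the 3 members, since *Dhx9* KO peaks covered 60, 78.3 and 40% of the *Cdh15*, *Nhlrc1* and *Zfp787* regions in the library with least. The members could be tested among the 58456 regions called in all 4 libraries. The *Cdh15* region, chr8:122838801-122870800, held 3035 and 2681 ChIP reads in WT and 1572 and 2015 in *Dhx9* KO, over 30.4, 24.6, 22.4 and 19.2 kb called, with a log2 change of -0.31 (SE 0.16, edgeR adjusted p = 0.57). The *Nhlrc1* region, chr13:46999401-47016000, held 1450 and 1296 against 992 and 1069 reads, with a log2 change of -0.31 (SE 0.14, edgeR adjusted p = 0.50). The *Zfp787* region, chr7:6129801-6138800, held 656 and 594 against 493 and 302 reads, with a log2 change of -0.20 (SE 0.15, edgeR adjusted p = 0.74). Part of the lower count at *Zfp787* in *Dhx9* KO replicate 2 goes with its shorter called length, 3.6 kb against 7.8 to 8.2 kb.

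None of these changes passed the threshold of 0.05. Over all regions tested, 6 of 58456, or 0.0103%, were lower in *Dhx9* KO and 0 were higher, with 4212 lower and 1589 higher at an unadjusted edgeR p under 0.05 and 347 lower and 24 higher in DESeq2. The log2 changes of *Cdh15*, *Nhlrc1* and *Zfp787* were higher than those of 16.6, 16.6 and 25.6% of regions. Over the alternatives tried, the change ran from -0.72 to -0.01 at *Cdh15*, with edgeR or DESeq2 adjusted p from 0.17 to 1.00, from -0.46 to -0.17 at *Nhlrc1*, with 0.0028 to 0.95, and from -0.68 to -0.02 at *Zfp787*, with 0.025 to 1.00. Without *Dhx9* KO replicate 2, and with regions covered over at least 80%, *Nhlrc1* at -0.44 (edgeR adjusted p = 0.0028) and *Zfp787* at -0.35 (edgeR adjusted p = 0.025) passed. In that fit the lone *Dhx9* KO library was assumed to vary like WT. With the same library left out among all regions, neither passed, with *Nhlrc1* at -0.46 (edgeR adjusted p = 0.21) and *Zfp787* at -0.37 (edgeR adjusted p = 0.31).

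Across genotypes, the pattern of peaks over the centre at *Cdh15* and *Zfp787*, present in both WT and both *Dhx9* KO libraries and absent in both *Uhrf1* KO libraries, was that of 13 of the 15 other imprinted loci. The study named these 15 loci too for their loss of H3K9me3 in *Uhrf1* KO, so the match in *Uhrf1* KO is a description. Among these 13, *H19*, *Meg3* and *Peg13* kept called peaks off the centre. In *Uhrf1* KO replicates 1 and 2 these covered 3.56 and 57.7% of the *H19* stretch, 11.1 and 14.4% at *Meg3*, and 0 and 14.4% at *Peg13*. Both *Cdh15* and *Zfp787* had 0%. Like *Nhlrc1*, *Kcnq1ot1* had a peak over the centre in *Uhrf1* KO replicate 2 only, at a log2 fold of 1.19 against 0.42 at *Nhlrc1*. Called peaks covered 41.8 and 90.4% of the *Kcnq1ot1* stretch in *Uhrf1* KO replicates 1 and 2, against 14.3 and 64.9% at *Nhlrc1*. The *Kcnq1ot1* stretch lay at -41.1 to -11.9 kb from the *Kcnq1ot1* start, upstream of the gene. *Rasgrf1* had peaks over the centre in both *Uhrf1* KO libraries, at a stretch past the gene's 3' end. The stretches of these 15 loci were taken by reads near the gene and need not be their imprinting control regions. Summed over the 3 windows, called peaks spanned 75.6 and 54.8 kb in WT, 53.6 and 40 kb in *Dhx9* KO and 2.2 and 12 kb in *Uhrf1* KO, with 6095 and 4901, 3294 and 3537, and 39 and 375 ChIP reads. The *Uhrf1* KO libraries thus lay below all others, while the *Dhx9* KO libraries lay below both WT libraries in summed reads and summed called length. Gene by gene, the reads were lower in each, but the called length was not. In *Dhx9* KO replicate 1 it was 19200 bp at *Nhlrc1*, against 18200 bp in both WT libraries. At *Zfp787* it was 12000 bp, against 19200 and 11000 bp in WT.

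Over the series, the 6 lists held 70195 to 125453 peaks with 6703081 to 20875020 ChIP reads, fewest in *Uhrf1* KO replicate 1. Of all WT stretches, 40.6 and 68.9% had a peak over the centre in *Uhrf1* KO replicates 1 and 2, and 77.0 and 73.7% in *Dhx9* KO. Among 5 genes active in mESCs, *Pou5f1*, *Sox2*, *Gapdh* and *Actb* had no peak within 1 kb in any list, and *Nanog* had 2 peaks in each WT list and in *Dhx9* KO replicate 1. The stronger *Nanog* peak reached log2 folds of 2.37 and 2.48 in WT, above those of the members, and 0.64 in *Dhx9* KO replicate 1.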

How the data were processed

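H3K9me3 ChIP-seq was analysed in 6 mESC libraries, 2 each of WT, *Uhrf1* KO and *Dhx9* KO, grouped by their labels. The authors aligned single-end reads with Bowtie2 2.3.4.3 to mm10, subsampled them with SAMtools and called peaks per library with epic2 0.0.51 (the submitters' processing notes name SICER), keeping duplicates, on wild-type input as background. This is stated for *Uhrf1* KO and WT, and for *Dhx9* KO the calling is not given in the sources used here. For every peak, the deposited files hold raw counts of ChIP reads and of background reads. They also hold the authors' p-value and false discovery rate, and a deposited log2 fold, which sets ChIP against background after scaling for depth. WT and *Dhx9* KO lists held the same background reads at peaks of equal limits, and *Uhrf1* KO lists other ones (4.29 and 2.27% equal). The authors' p-value and false discovery rate of a peak come from a single library with duplicates kept, so they hold no spread between libraries. Reads outside peaks are not listed, so a missing peak has no read count. Positions are 1-based, and the annotation's chromosome 2, shifted by 2762 bases of reporter, was set back to mm10.

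The members, the gene lists and the tests were chosen with earlier results of these data known. The text names the 3 members, the genes in their windows, and 15 imprinted loci by counts, ranges and exceptions. ChIP reads of merged regions entered edgeR 4.0.16 under R 4.3.3, whose quasi-likelihood test used TMM factors and an offset for the length called, with Benjamini-Hochberg adjustment and a threshold of 0.05. DESeq2 1.42.0 served as an alternative, and the filter on low counts removed 0 regions. The fit on regions covered over at least 80% held no member, so their values come from the fit on all regions called in every library. Tested on simulated data for WT against *Dhx9* KO, this fit recovered 177 of 200 regions changed 2-fold among 58456, with 3 false calls. The simulated spread between libraries was set beforehand, not estimated from these libraries, and the called lengths were left as they were. The recovery is therefore not the power of the fit in the real data. Other alternatives were peak filters, loss rules, window size, library sizes, offsets, a replicate block and leaving out each library. Tests on peaks over stretch centres, with the length or the background reads as offset, were chosen after seeing the data. Sequences come from the RefSeq mm10 reference (GRCm38). Tables were handled with Python 3.11.15, numpy 2.4.6 and pandas 2.3.3. P-values measure only the spread between these libraries, which the study calls biological replicates.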

Additional observations from a re-analysis of the deposited data

How the results depend on the processing

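The count of member sites lost was 2 of 3 in *Uhrf1* KO and became 3 with peaks limited to a false discovery rate of 1e-10 or a log2 fold of at least 1, since the remnants at *Nhlrc1* then dropped out, and it ran from 2 to 3 on leaving out a library, with 3 without *Uhrf1* KO replicate 2. It was 0 in *Dhx9* KO under every alternative run. The share of WT stretches lost in *Dhx9* KO was 11.1%, 17.9% with a peak log2 fold of at least 1, 7.15% when no peak could touch the stretch, and 18.5 to 26.3% on leaving out a library. In *Uhrf1* KO it was 29.3%, and 31.1 to 59.4% on leaving out a library, highest without *Uhrf1* KO replicate 2.

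Mean called length over the 3 windows was 65.2 kb in WT, 46.8 kb in *Dhx9* KO and 7.10 kb in *Uhrf1* KO. With genes plus 5 kb it was 43.8, 34.3 and 2.32 kb. At a false discovery rate of 1e-10 it was 48.5, 31.4 and 0 kb. *Dhx9* KO ChIP reads averaged 3416, 3158 with genes plus 5 kb, and 2802 at 1e-10.

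Regions changed in *Dhx9* KO numbered 26 of 4721 (24 lower) where covered over at least 80%. They numbered 41 (all lower) with library sizes derived from the lists, which shifted the median log2 change to -0.18, 14 without the length offset, 0 with all 6 libraries in edgeR (91 lower and 43 higher at an unadjusted p under 0.05), 6 with all regions called in every library, 77 at 50% coverage and 14 to 1645 on leaving out a library, highest without *Dhx9* KO replicate 2. Among all regions the count of 6 became 371 in DESeq2, 1 with derived library sizes, 0 without the length offset, 2 at 1e-10 or with all 6 libraries, 18 to 1186 on leaving out a library, and 20 and 76 over stretch centres. In *Uhrf1* KO they numbered 217 (165 lower), 106 in DESeq2 (93 lower), 575 with derived library sizes (33 lower, median log2 change 0.36), 303 without the length offset (167 lower), 129 at 1e-10, 30 with all 6 libraries, 0 with all regions in edgeR (2732 lower and 1188 higher at an unadjusted p under 0.05, 87 in DESeq2), 492 at 50% coverage and 50 to 4578 on leaving out a library, highest without *Uhrf1* KO replicate 1. With a replicate block, 85 regions (1021 among all regions) changed in *Dhx9* KO and 200 in *Uhrf1* KO. Same-numbered libraries correlated at -0.07 and 0.07 in their deviations, so the numbers were not taken as pairs, and with the replicate block *Cdh15*, *Nhlrc1* and *Zfp787* stood at -0.32, -0.32 and -0.20, none past the threshold. The *Zfp787* difference in log2 fold ran from -0.58 to 0.17 on leaving out a library and changed sign without *Dhx9* KO replicate 1. *Nhlrc1* (-0.44) and *Zfp787* (-0.35) passed the threshold without *Dhx9* KO replicate 2 in regions covered over at least 80%, but not among all regions. The causes were not tested. A region without a peak gives no count, which limits every statement on loss.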
